A study of Rattus norvegicus with 3 samples.

Results

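Lysosome and autophagy genes were taken by symbol from an expression array study of rat soleus muscle under disuse. Members were the cathepsins (Cts and 1 letter), the vacuolar ATPase subunits (Atp6v), the Atg genes, the Lamp genes, the LC3 and GABARAP genes (Map1lc3 and Gabarap), and Sqstm1, Becn1, Bnip3, Bnip3l, Ulk1 and Nagpa. The rule found 66 of the 14217 genes named on the array, each read from its probe set of highest mean signal. Of these members 55 were measured, meaning that at least 1 array reached the detection floor, a log2 signal of 6.01, against 11233 measured genes in all.

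The animals were white Sprague-Dawley rats, 8 weeks old. In the suspended groups the hind limbs were unloaded by hanging the rat by its tail at about 30 degrees for 7 or 14 days. The control group was not suspended and carries the label 7 days, so the 14-day group has no control of its own time. Each group was 1 array hybridised with soleus RNA pooled from 4 rats. The sample taken here as 14 days has that time in its title and time field, while its source field reads 7 days. With 1 array per group no difference could be tested, and none below carries a p-value. A fold of 1.5 was used to count differences. The only error available is a technical one, the spread between different probe sets of the same gene. It gave an SD of a log2 difference from control of 0.37 at 7 days and 0.38 at 14 days, and holds no variation between rats or pools. In whole muscle RNA, fewer cells of a type and less RNA per cell cannot be told apart.

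Lysosomes break down proteins, lipids and sugars that reach them by endocytosis or autophagy. Cathepsins are their main proteases, the vacuolar ATPase pumps the protons that keep the lumen acidic, and Lamp proteins line the membrane. In autophagy the Atg proteins build a double membrane around cytoplasm or organelles, LC3 and GABARAP proteins are joined to lipid on that membrane, and receptors such as p62 (Sqstm1) and the mitochondrial protein BNIP3 bring in the cargo. In skeletal muscle this route removes long-lived proteins and worn mitochondria, and many of its genes are known targets of the transcription factors TFEB and FoxO.

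Over all measured members the suspended arrays differed little from control. The median log2 difference was -0.08 at 7 days and 0.07 at 14 days, beside 0.00 and 0.01 over all measured genes. At 7 days 5 members stood at least 1.5-fold above control (9.09% of the measured members, against 9.04% of all measured genes) and 1 stood at least 1.5-fold below it (1.82%, against 9.15%). At 14 days 4 members stood above (7.27%, against 11.7%) and 2 below (3.64%, against 9.25%). Both comparisons use the same control array. The shares were near the background or under it, so the counts are no result about the members as a whole. The genes past 1.5-fold were Ctsc, Ctso, Ctss, Nagpa and Atg101 above control and Atp6v0a4 below it at 7 days, and Ctsc, Nagpa, Lamp2 and Atg101 above it and Atp6v0e1 and Gabarapl1 below it at 14 days. The dot plot of the members shows these genes apart from a body of small differences.

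**Figure D1:**
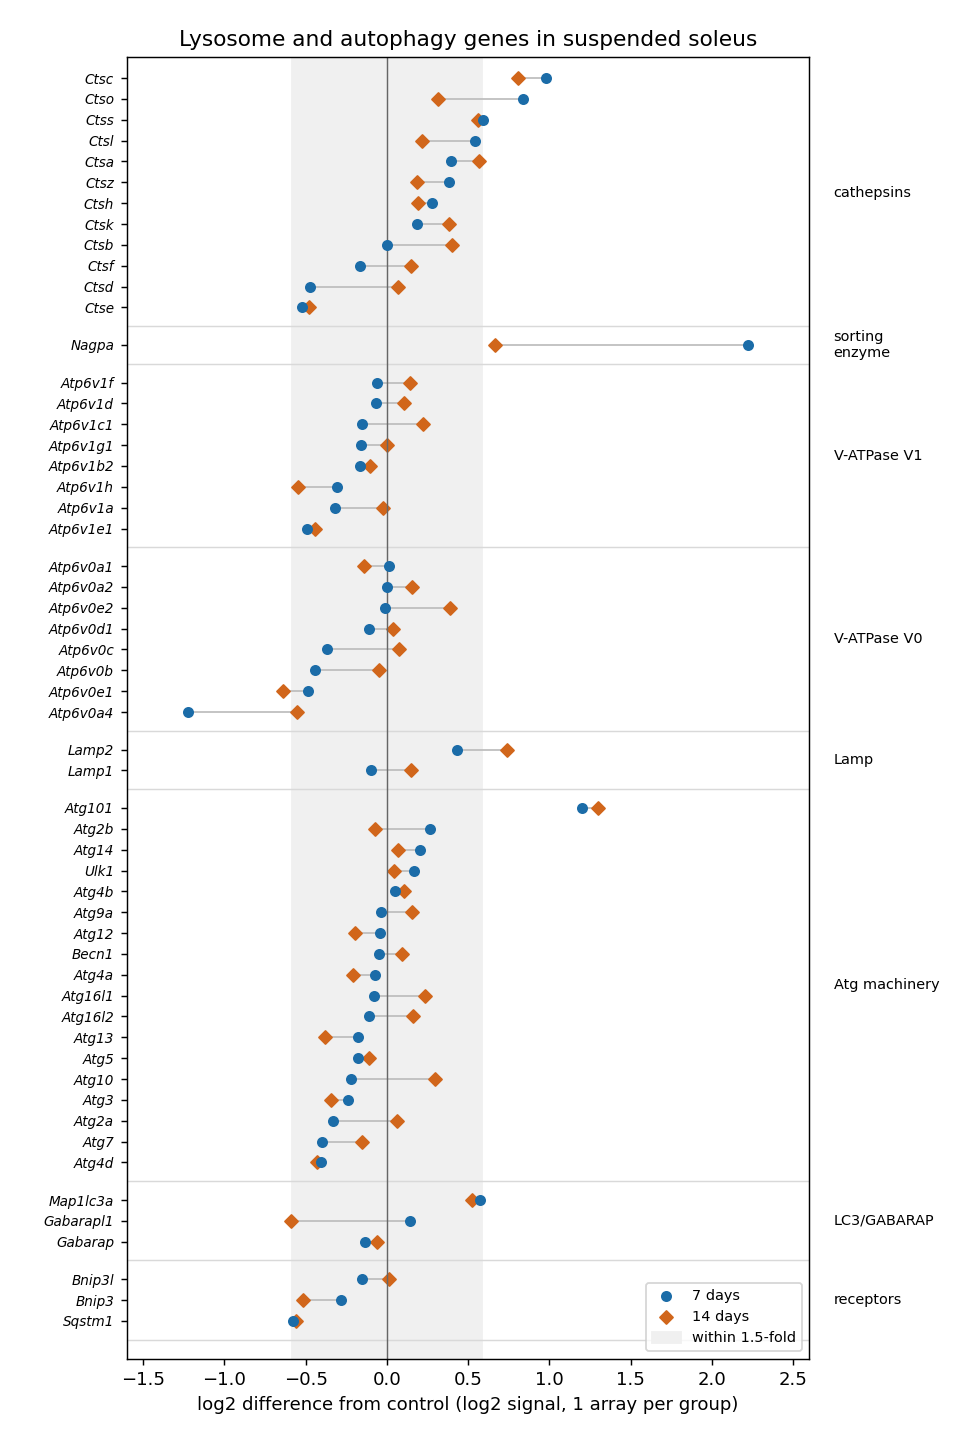
Log2 differences from control of the 55 measured members, grouped by role, at 7 days (circles) and 14 days (diamonds); the grey band marks differences within 1.5-fold. Each point is 1 array of pooled RNA against the same control array. Nagpa at 7 days (2.22) and Atp6v0a4 at 7 days (-1.23) mark the ends of the range, and most members lie within the band at both times.

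The promoters of several members carry the E-box palindrome CACGTG, and some the longer form TCACGTGA, through which TFEB is known to bind lysosomal genes. Stretches of the promoters of Atg3, Atp6v0d1, Ctsd and Lamp1 are shown because they hold the longer form. That of Nagpa, the member furthest from control, is shown with the shorter form. Each runs 5′ to 3′ on the gene's strand from 80 bases before to 20 bases after the RefSeq start on the GRCr8 assembly, and capitals mark CACGTG or TCACGTGA. Atp6v0e1 also holds the longer form, but from base 24 after the start, outside this window, and is not shown. The stretches lie at chr11:69159261-69159360 for Atg3, chr19:50357229-50357328 for Atp6v0d1, chr1:206968802-206968901 for Ctsd and chr16:83075044-83075143 for Lamp1, all on the minus strand, and at chr10:10886651-10886750 on the plus strand for Nagpa.
Atg3: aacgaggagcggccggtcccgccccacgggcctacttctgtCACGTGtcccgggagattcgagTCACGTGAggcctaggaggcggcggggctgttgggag
Atp6v0d1: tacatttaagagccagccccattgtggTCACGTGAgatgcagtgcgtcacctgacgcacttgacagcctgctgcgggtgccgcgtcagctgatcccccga
Ctsd: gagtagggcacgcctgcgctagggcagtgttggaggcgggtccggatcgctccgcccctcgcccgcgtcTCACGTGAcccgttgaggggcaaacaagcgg
Lamp1: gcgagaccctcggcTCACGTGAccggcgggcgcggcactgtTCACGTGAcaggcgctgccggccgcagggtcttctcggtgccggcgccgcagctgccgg
Nagpa: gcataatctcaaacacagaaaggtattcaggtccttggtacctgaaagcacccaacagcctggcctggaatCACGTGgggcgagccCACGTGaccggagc

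RefSeq promoters of 300 bases, from 250 before to 50 after the start, were found for 55 of the 66 members, 46 of them measured. Both E-box forms read the same on either strand, and the longer holds the shorter. CACGTG occurred in 10 member promoters (18.2%), those of Atg14, Atg3, Atg5, Atp6v0d1, Atp6v0e1, Bnip3, Ctsd, Ctsf, Lamp1 and Nagpa, against 6.42% of the 33469 promoters in the table and 9.16% of those of measured genes. TCACGTGA occurred in 5 (9.09%), those of Atg3, Atp6v0d1, Atp6v0e1, Ctsd and Lamp1, against 0.777% of all promoters and 1.58% of those of measured genes. The FoxO motif TGTTTAC, searched on both strands, was found in 1 (1.82%, Atp6v1b1, a gene under the floor) against 3.78% of all promoters. The 5 genes with TCACGTGA all lay below control at 7 days, under the deposited and both other scalings. Under the deposited scaling 65.5% of the measured members and 49.0% of all measured genes also lay below control at 7 days. The log2 differences of the 5 were -0.24 for Atg3, -0.11 for Atp6v0d1, -0.48 for Atp6v0e1, -0.47 for Ctsd and -0.10 for Lamp1. Those of Atg3, Atp6v0d1 and Lamp1 were under 1 technical SD, and a link of the motif to direction was not tested. At 14 days Atg3 (-0.34) and Atp6v0e1 (-0.64) lay below control and Atp6v0d1 (0.04), Ctsd (0.07) and Lamp1 (0.15) above it. Only the 14-day value of Atp6v0e1 passed 1.5-fold. A match is a description of these letters, not a binding site.

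Cathepsins stood mostly above control. Of the 12 measured, 9 lay above control at 7 days and 11 at 14 days, under the deposited scaling and under both other scalings, against 49.4% and 51.3% of all measured genes above control. Their median log2 difference was 0.33 at 7 days and 0.27 at 14 days. Those past 1.5-fold were Ctsc, Ctso and Ctss at 7 days and Ctsc at 14 days. The remaining 5 of the 17 cathepsins on the array (Ctsj, Ctsm, Ctsq, Ctsr and Ctsw) lay under the floor on every array; the first 4 are known from rodent placenta and Ctsw from cytotoxic lymphocytes.

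Ctsc, the dipeptidyl peptidase that activates the granule proteases of immune cells, gave log2 signals of 10.11 on the control array, 11.09 on the 7-day array and 10.92 on the 14-day array. It thus lay 1.97-fold above control at 7 days and 1.75-fold at 14 days, 3.52 and 2.64 technical SDs. Its further probe set gave larger differences, 1.41 and 1.26, from 9.05 in control to 10.46 and 10.31. Both probe sets therefore placed both suspended arrays above control. Ctss, an endopeptidase of antigen-presenting cells, read 9.90, 10.50 and 10.46, which is 1.51-fold and 1.47-fold above control. The 7-day value passed the 1.5-fold mark by little and dropped under it with quantile normalization (log2 difference 0.56). Ctso, a less studied cysteine protease, read 6.78, 7.62 and 7.10, 1.79-fold above control at 7 days and 1.24-fold at 14 days. Its signals were low, and its 7-day difference was 1.77 technical SDs.

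The cathepsins known for bulk proteolysis in muscle stayed within 1.5-fold of control at both times. Ctsl, a cysteine endopeptidase long linked with muscle wasting, read 12.98, 13.52 and 13.20, 1.46-fold above control at 7 days and 1.16-fold at 14 days. Its 7-day difference was 1.94 technical SDs, near that of Ctss (2.13). The further Ctsl probe set gave 0.51 at 7 days and -0.18 at 14 days, so the 7-day difference was seen in both and the 14-day difference was not. Ctsb, a cysteine protease that also trims peptide ends, read 12.20, 12.21 and 12.60, level with control at 7 days and 1.32-fold above it at 14 days. Ctsd, the aspartic protease, read 11.84, 11.36 and 11.91. Alone with Ctse and Ctsf it lay below control at 7 days (1.39-fold), and at 14 days it was back at 1.05-fold above, so that the 14-day array exceeded the 7-day array 1.46-fold, by 2.59 technical SDs.

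Ctsa, the carboxypeptidase that shields beta-galactosidase and neuraminidase, read 11.02, 11.42 and 11.59, above control by 1.32-fold and 1.48-fold. Ctsz, a carboxypeptidase, differed by 0.38 and 0.19, Ctsh, an aminopeptidase, by 0.28 and 0.19, and Ctsk, the collagen-cleaving protease of osteoclasts, by 0.18 and 0.39. All of these stayed within 1.5-fold at both times. Ctsf differed by -0.16 and 0.15. Ctse, an aspartic protease of stomach and immune cells, read 6.53 in control, 5.19 at 7 days and 6.05 at 14 days, so it lay at least 1.43-fold below control at 7 days and 1.39-fold below at 14 days, all close to the floor.

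Markers of macrophages, cells rich in lysosomes, stood mostly above control, as the cathepsins did. Of the 18 on the array 17 were measured, Itgam lying under the floor. At each time 16 of the 17 lay above control, against 49.4% and 51.3% of all measured genes at 7 and 14 days. At 7 days 7 of them stood at least 1.5-fold above control (41.2%, against 9.04% of all measured genes). At 14 days 8 did (47.1%, against 11.7%). The median log2 difference of the 17 was 0.55 at 7 days and 0.56 at 14 days. Their unlogged signals summed to 12794 on the control array, 16914 on the 7-day array and 17790 on the 14-day array. Among them the scavenger receptor Cd163 stood 2.11-fold and 1.84-fold above control, the endotoxin co-receptor Cd14 1.57-fold and 2.01-fold and the complement gene C1qc 1.90-fold and 1.55-fold. The signalling adaptor Tyrobp read 7.90 on the control array, 8.56 on the 7-day array and 8.90 on the 14-day array. Macrophage markers were not alone in this. Mast cell, adipocyte, fibroblast, and nerve and Schwann cell markers also had medians above 0 at both times. Neutrophil, lymphocyte, endothelial and red blood cell markers had medians below 0 at both. The part of any of these cells in the cathepsin differences was not tested. The 12 soleus muscle markers, such as the slow myosin Myh7, had a median of 0.01 at 7 days, turning to -0.02 with quantile normalization, and -0.23 at 14 days. Median differences at 7 and 14 days were 0.04 and 0.20 for mast cell, -0.13 and -0.02 for neutrophil, -0.19 and -0.35 for lymphocyte, 0.85 and 0.48 for adipocyte, 0.24 and 0.46 for fibroblast, -0.12 and -0.09 for endothelial, 0.41 and 0.60 for nerve and Schwann cell, and -0.15 and -0.53 for red blood cell markers.

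Nagpa had the largest difference of any measured member. It encodes the uncovering enzyme of the Golgi, which exposes the mannose 6-phosphate tag that routes hydrolases to the lysosome. The control array read 6.21, the 7-day array 8.43 and the 14-day array 6.87. The 7-day array stood 4.67-fold above control, 4.67 technical SDs, and the 14-day array 1.58-fold above it, 1.38 technical SDs. From 7 to 14 days the signal was 2.95-fold lower, by 3.97 technical SDs. The 7-day array was thus high and the other arrays low, with control just over the floor and only 1 probe set for the gene. With the floor raised to the 50th percentile of all signals the 7-day difference was 1.69 and the 14-day difference 0.13. The plot of the signals of members past 1.5-fold shows this single peak.

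**Figure D2:**
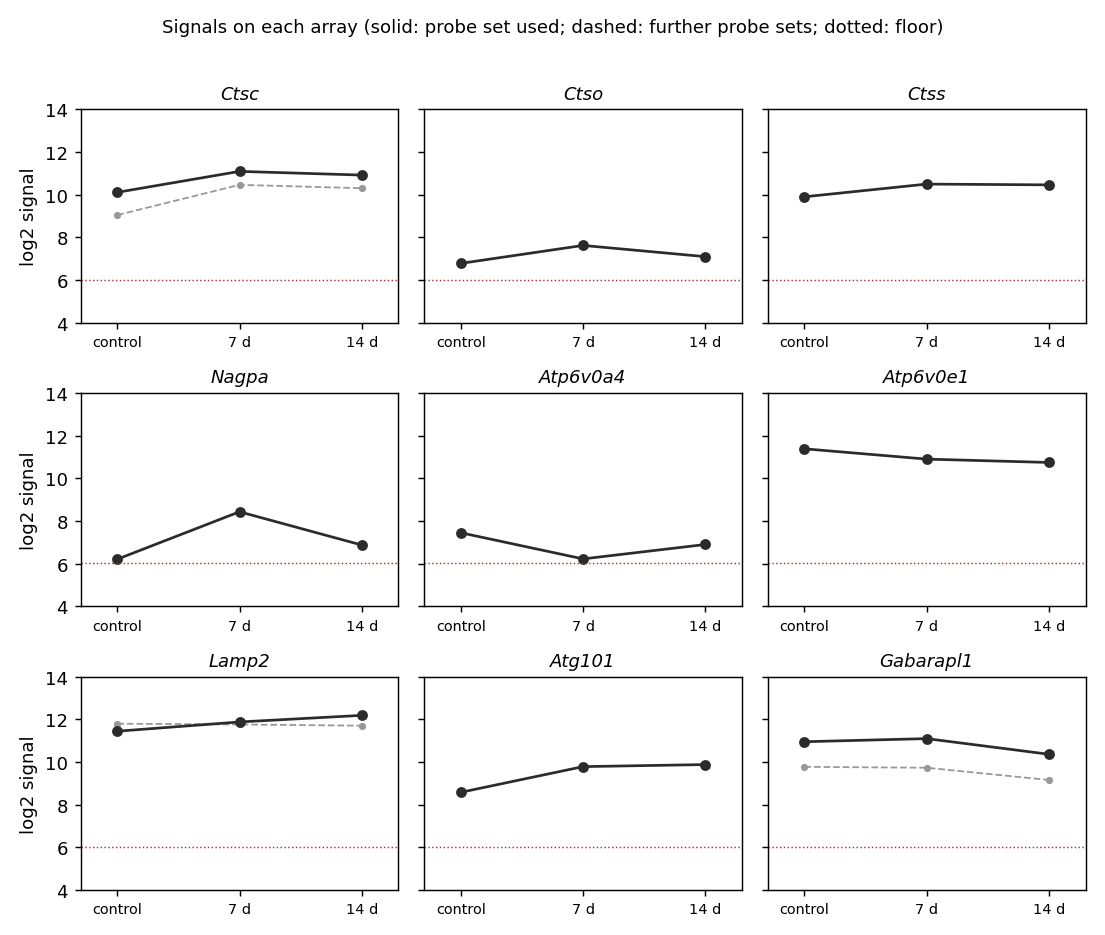
Log2 signals of the 9 members at least 1.5-fold apart in any comparison, on the control, 7-day and 14-day arrays; black solid lines are the probe sets used, grey dashed lines further probe sets, the dotted line the floor (6.01). Each point is 1 array. Ctsc and Gabarapl1 keep their shape in the further probe set, Lamp2 does not, and Nagpa peaks at 7 days from near the floor.

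The vacuolar ATPase has a V1 sector in the cytosol, which splits ATP, and a V0 sector in the membrane, which passes protons. Of its 16 measured subunits 15 lay below control at 7 days and 9 at 14 days, most by small amounts. Of all measured genes 49.0% and 47.3% lay below control. The median was -0.16 at 7 days and -0.01 at 14 days over the 8 V1 subunits, and -0.24 and -0.00 over the 8 V0 subunits, the last turning to 0.01 with median centring. With each array centred on its median 11 of the 16 lay below control at 7 days, and with quantile normalization 15. Atp6v1b1, Atp6v1c2, Atp6v1g2 and Atp6v1g3, forms known chiefly from tissues such as kidney and brain, stayed under the floor.

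Atp6v0a4, a membrane subunit best known from acid-secreting cells of the kidney, was the member furthest below control. It read 7.45, 6.22 and 6.90, which is 2.34-fold lower at 7 days (2.57 technical SDs) and 1.46-fold lower at 14 days. The 7-day signal lay just over the floor. In the probe sets used its relatives Atp6v0a1 (0.01 and -0.14) and Atp6v0a2 (-0.00 and 0.15) stayed near control. A further Atp6v0a2 probe set of lower signal read 7.66, 7.23 and 7.43, differences of -0.42 and -0.23. Atp6v0e1, a small membrane subunit, read 11.38, 10.90 and 10.74, 1.40-fold below control at 7 days and 1.56-fold at 14 days, 1.73 and 2.09 technical SDs. Both suspended arrays were low for this gene.

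The proton-carrying ring subunit Atp6v0c read 12.11, 11.74 and 12.18, and its partner Atp6v0b 9.38, 8.94 and 9.33. Both lay low at 7 days (differences of -0.37 and -0.44) and level with control at 14 days (0.08 and -0.05). Atp6v0d1, which couples the sectors, differed by -0.11 and 0.04, and Atp6v0e2 by -0.01 and 0.39. In V1, the stalk subunit Atp6v1e1 read 12.12, 11.63 and 11.68, differences of -0.49 and -0.44. The regulatory subunit Atp6v1h read 9.99, 9.68 and 9.44, differences of -0.30 and -0.54. These lay low at both times without passing 1.5-fold. The catalytic subunit Atp6v1a differed by -0.32 and -0.03, Atp6v1b2 by -0.16 and -0.10, and Atp6v1c1 by -0.15 and 0.22. Atp6v1d (-0.07 and 0.11), Atp6v1f (-0.06 and 0.14) and Atp6v1g1 (-0.16 and -0.00) differed least.

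Lamp1 and Lamp2 are the main glycoproteins of the lysosomal membrane, and Lamp2 is needed for autophagosomes to be cleared in muscle. Lamp1 differed by -0.10 and 0.15, within 1.5-fold of control. Lamp2 read 11.44, 11.87 and 12.18, 1.35-fold above control at 7 days and 1.67-fold at 14 days, the last by 2.43 technical SDs. Its further probe set, also bright, read 11.79, 11.75 and 11.70, differences of -0.04 and -0.09, and the mean of both gave 0.32 at 14 days. The Lamp2 difference therefore rests on 1 of 2 probe sets. Lamp3 and Lamp5 stayed under the floor.

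All 18 measured genes of the Atg machinery except Atg101 lay within 1.5-fold of control at both times. The median was -0.08 at 7 days and 0.05 at 14 days, the last turning to -0.01 with quantile normalization. Atg101, which binds Atg13 in the ULK1 kinase complex that starts autophagy, read 8.57, 9.78 and 9.87. It stood above control by log2 differences of 1.20 at 7 days and 1.30 (2.46-fold) at 14 days, 3.39 and 3.58 technical SDs, from 1 probe set. Both suspended arrays were high by nearly the same amount. Its partners in the complex did not share this: Ulk1, the kinase, read 9.47, 9.64 and 9.51, and Atg13, the scaffold, read 10.22, 10.04 and 9.84.

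Becn1, the core of the lipid kinase complex that nucleates the membrane, read 11.20, 11.16 and 11.30. Its partner Atg14 differed by 0.20 and 0.07 at signals close to the floor. Atg9a, the lipid scramblase that seeds the membrane, differed by -0.04 and 0.16. Of the lipid transfer proteins, Atg2a differed by -0.33 and 0.06 and Atg2b by 0.26 and -0.07. In the probe sets used none of these lay more than 1 technical SD from control. A further Atg2b probe set of lower signal gave 0.77 and 0.71, and a further Atg9a probe set, also of lower signal, -0.56 and -0.17.

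The conjugation genes differed from control by little. Atg3, which passes LC3 to lipid, read 11.50, 11.26 and 11.16, and the protease Atg4d, which trims LC3, read 8.97, 8.56 and 8.53. Both were low on both suspended arrays, Atg4d by 1.32-fold and 1.35-fold. The other LC3 proteases Atg4a (-0.08 and -0.21) and Atg4b (0.05 and 0.11) were nearer control. Atg7, the activating enzyme, read 7.78, 7.38 and 7.63, differences of -0.40 and -0.15, while its further probe set gave 0.48 and 1.02, the opposite sign. Atg5 (-0.18 and -0.11), Atg12 (-0.04 and -0.19) and Atg16l1 (-0.08 and 0.23), which form the conjugate that places LC3, its relative Atg16l2 (-0.11 and 0.16) and the enzyme Atg10 (-0.22 and 0.30), which joins Atg12 to Atg5, stayed within 1.5-fold. A further Atg12 probe set gave -0.43 and -1.27, another 0.43 and 0.23.

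The LC3 and GABARAP genes went different ways. Map1lc3a, an LC3 form, read 11.79, 12.36 and 12.31, 1.49-fold above control at 7 days and 1.44-fold at 14 days, just inside 1.5-fold. Gabarapl1 read 10.94, 11.09 and 10.36. It stood 1.11-fold above control at 7 days and differed by -0.59 at 14 days, just past 1.5-fold, or by -0.57, inside 1.5-fold, with each array centred on its median. Between the suspended arrays Gabarapl1 was 1.66-fold lower at 14 days, 3.47 technical SDs, and its further probe set gave -0.57 for the same comparison and -0.61 against control. The 14-day array was thus low in both probe sets. Gabarap read 13.33, 13.20 and 13.27, with no difference of 1 technical SD.

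In the probe sets used the cargo receptors lay at or below control. Sqstm1 encodes p62, which ties ubiquitin-tagged cargo to LC3 and is itself consumed in autophagy. It read 13.42, 12.85 and 12.87, 1.49-fold below control at 7 days and 1.47-fold at 14 days, 2.07 and 1.82 technical SDs. Its further probe set above the floor gave -0.30 and -0.56, so both were low on both suspended arrays. Bnip3, the receptor of mitochondria, read 14.47, 14.19 and 13.95, 1.22-fold and 1.43-fold below control. Its relative Bnip3l read 11.74, 11.59 and 11.75, level with control at 14 days. A further Bnip3l probe set, also bright, read 10.93, 11.02 and 11.24, differences of 0.09 and 0.31, above control at both times. In the probe sets used all 3 receptors stayed within 1.5-fold at both times.

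The comparison of 14 with 7 days does not use the control array, but it shares the suspended arrays with the comparisons above. A signal low or high on the 7-day array alone enters it with the opposite sign, so it is no independent observation. At 14 days 1 member stood at least 1.5-fold higher than at 7 days (1.82%, against 6.45% of all measured genes). As far lower were 2 (3.64%, against 4.28%). The higher one was Atp6v0a4 (log2 difference 0.68, or 0.16 with the higher floor) and the lower ones were Nagpa and Gabarapl1. The median over the measured members was 0.08, with 34 above and 21 below (61.8% and 38.2%). For all measured genes it was 0.00, with 49.9% above and 46.3% below. Of the 16 vacuolar ATPase subunits 13 were higher at 14 than at 7 days, against 49.9% of all measured genes. With median centring 12 were higher and with quantile normalization 13. After Atp6v0a4 the widest differences were those of Atp6v0c (1.36-fold, 2.10 technical SDs), Atp6v0e2 (log2 difference 0.394) and Atp6v0b (0.390). The cathepsins split evenly, 6 higher and 6 lower, with Ctsd 1.46-fold and Ctsb 1.31-fold higher and Ctso 1.44-fold lower and Ctsl at a log2 difference of -0.33. The Atg machinery was 10 higher and 8 lower, with no gene past 1.5-fold.

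Further probe sets show how far 1 probe set can be relied on. Of 27 further probe sets of 19 measured members, 19 reached the floor on all 3 arrays. Of these, 12 had the sign of the probe set used at 7 days and 7 the opposite, 9 and 10 at 14 days, and 14 and 5 between 14 and 7 days. The median gap between the log2 differences was 0.30 at 7 days, 0.38 at 14 days and 0.23 between them. Ctsc, Sqstm1 and Gabarapl1 at 14 days kept their direction, and Lamp2 and Atg7 did not, as the plot of both sets of values shows.

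**Figure D3:**
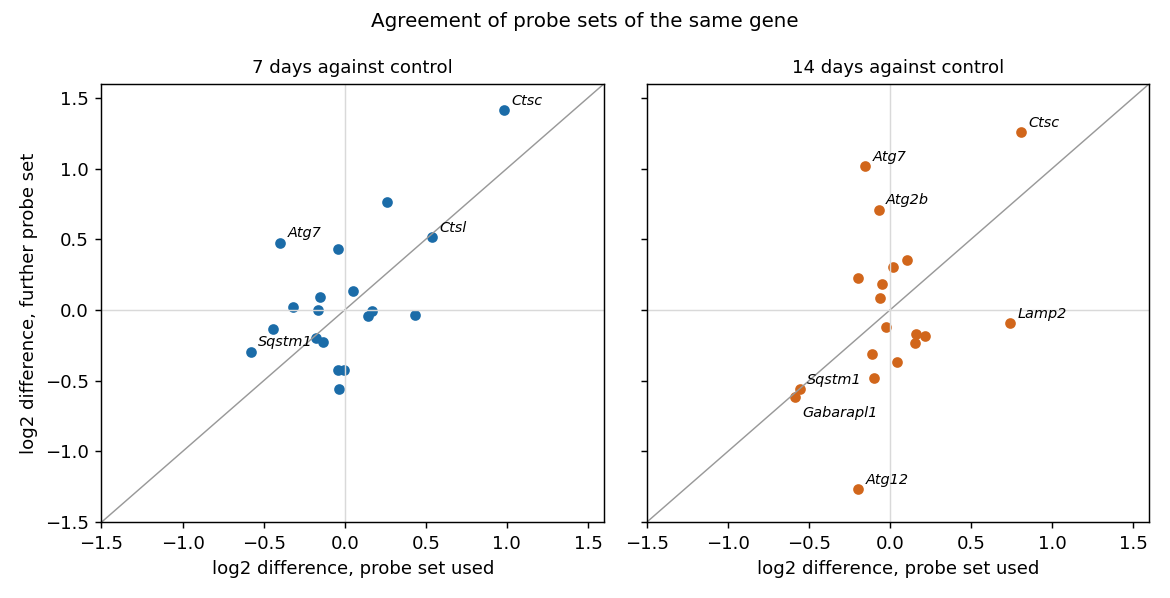
Log2 difference from control in the probe set used (horizontal axis) and in a further probe set of the same member (vertical axis), at 7 days (left) and 14 days (right), for the 19 further probe sets that reached the floor on all 3 arrays; the diagonal marks equal values. Ctsc lies far out in the upper right at both times, while Lamp2 lies near 0 on the vertical axis and Atg7 on the opposite side from its probe set used.

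Genes of the same pathways outside the members were read from fixed lists, each from its probe set of highest mean signal. Some, such as Sort1, Deptor, Foxo1 and Foxo3, have further probe sets. Unlike those of the members, these were not compared gene by gene. Of 30 measured lysosomal hydrolases 16 lay above control at 7 days and 26 at 14 days, with medians of 0.05 and 0.26. Between the suspended arrays 27 of 30 were higher at 14 than at 7 days (median 0.28). Of all measured genes 49.4% and 51.3% lay above control, and 49.9% were higher at 14 than at 7 days. With quantile normalization 24 lay above control at 14 days, and 25 were higher at 14 than at 7 days under each other scaling. At least 1.5-fold above control were 3 at 7 days (10%, against 9.04% of all measured genes) and 9 at 14 days (30.0%, against 11.7%). As far below were 2 (6.67%, against 9.15%) and 1 (3.33%, against 9.25%). The 7-day share above control was thus near the background. Manba, a beta-mannosidase, read 6.86, 7.96 and 7.99, 2.13-fold and 2.18-fold above control. Gusb, the beta-glucuronidase, read 8.19, 8.92 and 9.27, 1.66-fold and 2.12-fold above, and Arsb, a sulfatase, stood 1.53-fold and 1.78-fold above. Smpd1, the acid sphingomyelinase, read 11.23, 10.42 and 10.62, differences of -0.81 and -0.61. The hydrolases, like the cathepsins, were thus mostly above control at 14 days while the proton pump was not.

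Lysosomal membrane and sorting genes, 22 measured, had medians of 0.03 and 0.23. At least 1.5-fold above control were 1 and 4 (4.55% and 18.2%, against 9.04% and 11.7% of all measured genes). As far below was 1 at each time (4.55%, against 9.15% and 9.25%). The sorting receptor Sort1 differed by 0.42 and 0.93, the sialic acid exporter Slc17a5 by 0.52 and 0.67, the membrane protein Scarb2 by -0.60 and 0.73 and the coat adaptor Gga3 by -0.31 and -0.76. The 4 measured cathepsin inhibitors had medians of -0.17 and 0.30, with none past 1.5-fold against control. The 13 genes of lysosome fusion had medians of -0.04, turning to 0.03 with median centring, and 0.11. Among them Vps18, a subunit of the tethering complex, read 7.77, 7.17 and 6.58, differences of -0.60 and -1.19. It was the only one past 1.5-fold against control. The 13 other receptor and mitophagy genes had medians of -0.03 and -0.00, turning to 0.04 and 0.01 with median centring, and none past 1.5-fold.

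Autophagy signalling and nucleation genes, 29 measured, had medians of 0.03 and -0.01, the last turning to 0.00 with median centring. At least 1.5-fold above control were 4 at 7 days and 2 at 14 days (13.8% and 6.90%, against 9.04% and 11.7% of all measured genes). As far below were 3 and 2 (10.3% and 6.90%, against 9.15% and 9.25%), so the shares lay on both sides of the background. Deptor, an inhibitor of the growth kinase mTOR, read 10.27, 11.54 and 11.60, 2.41-fold and 2.51-fold above control. Tfeb, read at 9.59 and 9.80 on the suspended arrays, stood 1.51-fold and 1.75-fold above control. Both were high on both suspended arrays. Tp53inp2, a promoter of autophagosome formation, differed by -0.74 and -0.47, and Wipi2, which recruits the conjugation machinery, by -0.71 and -0.73. Of the FoxO genes, named here after their values were seen, Foxo1 (0.35 and -0.62) and Foxo3 (0.61 and -0.25) were above control at 7 days and below it at 14 days, while Foxo4 (-0.36 and -0.12) was below it at both. The plot of groups and lists sets these spreads beside those of the members.

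**Figure D4:**
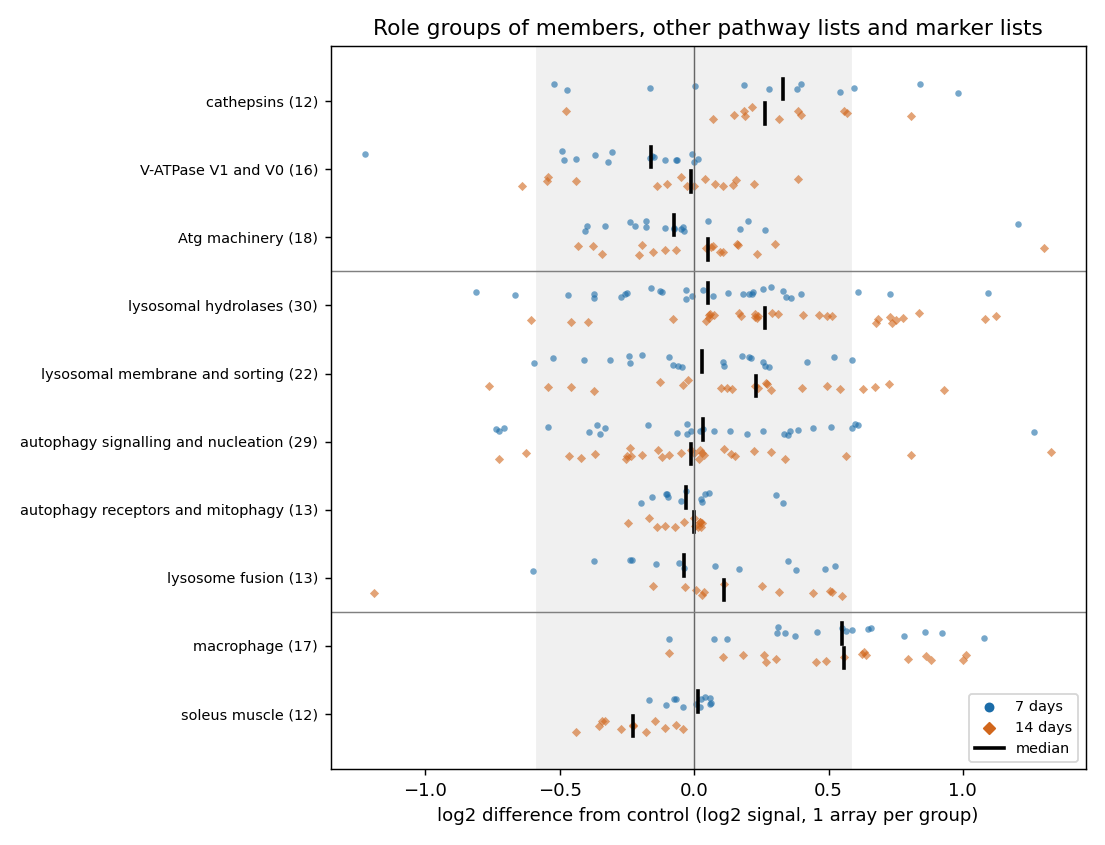
Log2 differences from control of the role groups of members, of the other pathway lists and of the macrophage and soleus marker lists, at 7 and 14 days; each small point is a measured gene and each bar the median of its group, with the number of genes beside the name and a grey band within 1.5-fold. The macrophage markers (medians 0.55 and 0.56) and cathepsins (0.33 and 0.27) lie above 0 at both times, the vacuolar ATPase subunits lie mostly below 0 at 7 days (-0.16), and the hydrolases lie above 0 at 14 days (0.26).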

How the data were processed

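RNA of soleus muscle, pooled from 4 rats per group, was hybridised to 1 one-colour Affymetrix rat array per group. The authors deposited log2 signals for 31099 probe sets. The program that made them is not given in the sources used here. Unlogged, the 3 deposited columns share a trimmed mean of 500, which places them on 1 scale, and array medians were 6.70 to 6.77. The platform annotation names 1 gene for 20826 probe sets, several for 436 and none for 9780, besides 57 controls. Symbols were checked against RefSeq through gene IDs: 66 members matched and 0 changed. The 4 probe sets that pair a member with another gene (Map1lc3b with Map1lc3b2, Gabarapl2 with Gabarapl3 on 2 of them, and Atp6v0a2 with Tctn2) were left out, so Map1lc3b and Gabarapl2 are not reported.

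Per gene the probe set of highest mean signal was kept, signals under the floor (40th percentile of all non-control signals) were set to it, and log2 differences were taken, so a fold with 1 signal under the floor is a lower bound. The technical SD is the SD of the gap between the differences of 3956 pairs of probe sets of 1 gene, divided by the square root of 2, in 3 ranges of signal. It was 0.48 below a log2 signal of 8, 0.36 between 8 and 10, and 0.28 (7 days) or 0.31 (14 days) from 10 up. For arrays, their number limits the precision, and 1 per group allows no test. Every measured member is named, and of each pathway and macrophage list up to 4 genes by size of difference among those past 1.5-fold. Members and lists were chosen with earlier results of these data known. Promoters are those of RefSeq (GRCr8). Alternatives were other scalings, floors, probe set rules and a 1.25-fold mark. Python 3.11.15, numpy 2.4.6 and pandas 2.3.3 were used, and the scripts were tested on simulated data.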

Additional observations from a re-analysis of the deposited data

How the results depend on the processing

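No paired analysis was possible because each group is 1 array, and leaving out a replicate was not possible for the same reason. Of 819 differences of single members recomputed under other settings 804 moved by less than their technical SD, 15 moved by more and 0 of those past 1.5-fold changed sign. Much of this was fixed in advance. Median centring shifts each array by 1 constant, smaller than any technical SD, so its 165 differences could not move by more. Averaging cannot move members with 1 probe set, and 21 of the 66 have more. The count thus says little about how firm the differences are. Median centring moved the 7-day median of the members to -0.0032 and left 1 member at least 1.5-fold lower at 14 days, against 8.80% of all measured genes. It shifted no median of all genes by over 0.1. With no floor and no filter 8 of the 66 members were at least 1.5-fold higher and 5 lower at 7 days. The counts were 7 and 9 at 14 days, and 7 and 7 between 14 and 7 days. The shares of all genes were then 14.4% and 18.3%, 16.7% and 19.0%, and 14.2% and 12.9%. With the floor at the 50th percentile 0 were at least 1.5-fold higher at 14 than at 7 days, against 5.14% of all measured genes. Averaging all probe sets of a gene, 4 were at least 1.5-fold lower at 14 than at 7 days, against 5.17% of all measured genes. At the lower fold mark, of the 55 measured members 10 were higher and 11 lower at 7 days. The counts were 10 and 11 at 14 days, and 9 and 5 between 14 and 7 days. Over all measured genes the shares at that mark were 21.3% and 20.9%, 24.6% and 20.8%, and 17.4% and 13.7%. The fewer or more genes counted follow from each setting's construction for the floor and the fold, and for the others the cause was not tested. Signals near the floor (Nagpa, Atp6v0a4, Ctso, Ctse) limit the folds of those genes.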

Other observations

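The signs of close relatives among the members did not always match. In 8 pairs, chosen after the values were seen, the members of 5 pairs had opposite signs at 7 days and of 5 at 14 days. Some of these signs rest on values near 0, such as Atp6v0a1 (0.014) and Atp6v0a2 (-0.001) at 7 days, so the count is no result. The widest gap was that of the small vacuolar ATPase subunits at 14 days, 1.03 or 2.16 technical SDs. Atp6v0e1 stood at -0.64 and Atp6v0e2 at 0.39, each from its own probe set. At 7 days the gap of this pair was 0.48. The other 7-day and 14-day gaps stayed under 2 technical SDs, among them Lamp1 against Lamp2 (0.53 and 0.59), Bnip3 against Bnip3l (0.13 and 0.53) and Atg2a against Atg2b (0.60 at 7 days). These are values of 1 array per group and were not tested.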
